A study of Mus musculus with 7 samples.

Results

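The genes described here belong to cholesterol synthesis and its feedback control in liver neutrophils. They were chosen by symbol, as 8 names of which 7 were in the expression table of 16047 genes. The sterol enzymes are Idi1, Fdps, Fdft1, Sqle and Cyp51, the feedback regulator is Insig1, and the oxysterol enzyme is Ch25h. Hmgcs1 was not analysed here, and no receptor for cholesterol uptake is among the 8 names.

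Neutrophils were sorted from the livers of C57BL/6 mice, males of 8 to 12 weeks, 24 h after injury of the liver by acetaminophen (AILI). All mice had received 300 mg/kg of acetaminophen (APAP) intraperitoneally after 12 h without food. From 12 h before APAP and every 24 h, 3 mice were injected with 400 µL of medium holding 29 µg/mL of MC-21, an antibody against the chemokine receptor CCR2, and 4 mice with PBS. The labels describe MC-21 livers as lacking the infiltrating Ly6Chi monocytes and PBS livers as normal, so the PBS group is injured too and no uninjured liver was sequenced. From each liver, 50000 cells that were CD11b+, Ly6Clo, CX3CR1-GFP- and Ly6G+ gave 1 library of 3′ ends of transcripts, and the libraries carry the mouse numbers 5 to 8 for PBS and 2 to 4 for MC-21. The GFP of this definition belongs to Cx3cr1gfp/+ reporter mice, which the study lists beside C57BL/6J wild-type mice. Its RNA-seq methods do not say which of them were used. Values are RPKM, reads per kilobase of transcript, scaled to the mapped reads of the library. Because reads came from the 3′ end while RPKM divides by the whole transcript, a level compared between genes is lowered for a long transcript.

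Cholesterol is built from acetyl-CoA through mevalonate, isoprenoid units, squalene and lanosterol. When sterols in the endoplasmic reticulum are scarce, SCAP carries the transcription factor SREBP-2 to the Golgi for cleavage, and the released fragment activates nearly all genes of the route. INSIG proteins hold SCAP back when sterols are abundant. CH25H converts cholesterol to 25-hydroxycholesterol, an oxysterol that binds INSIG and lowers SREBP processing, and in myeloid cells Ch25h is known as a gene induced by interferon and Toll-like receptor signals. In the liver, hepatocytes are the main site of cholesterol synthesis.

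The promoters of 4 of the 7 genes, taken from a table of RefSeq promoters (GRCm38.p6), are shown for the letters of known sterol and inflammatory motifs that they hold. Each line gives the 120 bases before the start of transcription, 5′ to 3′ along the gene's own strand, with motif matches in capitals. The Idi1 stretch is chr13:8885486-8885605 on the plus strand, that of Cyp51 is chr5:4104698-4104817 on the minus strand, that of Insig1 is chr5:28071292-28071411 on the plus strand and that of Ch25h is chr19:34475149-34475268 on the minus strand.
Idi1: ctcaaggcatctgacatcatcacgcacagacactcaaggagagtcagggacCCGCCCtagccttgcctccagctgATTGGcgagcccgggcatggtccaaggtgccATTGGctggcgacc
Cyp51: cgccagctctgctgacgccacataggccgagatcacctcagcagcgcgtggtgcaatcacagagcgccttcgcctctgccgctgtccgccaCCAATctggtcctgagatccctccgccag
Insig1: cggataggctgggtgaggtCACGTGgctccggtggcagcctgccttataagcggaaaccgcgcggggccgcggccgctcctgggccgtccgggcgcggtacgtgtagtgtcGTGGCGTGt
Ch25h: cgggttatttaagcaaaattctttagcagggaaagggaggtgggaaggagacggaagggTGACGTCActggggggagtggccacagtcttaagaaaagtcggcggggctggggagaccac

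Searched on both strands were 8 motifs, from 250 bases before to 50 bases after the start. The box of NF-Y, a partner of SREBP at many sterol promoters, is CCAAT, and it or its reverse is capitalised at 2 places in Idi1 and at 1 in Cyp51. The GC box of Sp1, another partner, is GGGCGG and is capitalised as its reverse in Idi1. Insig1 holds the core of a sterol regulatory element, CACNCCAC, as its reverse at bases -9 to -2, and the E-box CACGTG at bases -101 to -96. Further NF-Y and Sp1 boxes of Insig1 and an Sp1 box of Cyp51 lie outside the bases shown. Ch25h had neither box and no sterol element in the window, and held the cyclic AMP response element TGACGTCA. The AP-1 site TGANTCA, the NF-kappaB site GGGNNTTCC and the core of the interferon-stimulated response element had no match in the 4 promoters. None of the capitalised matches overlaps another. Of all 32851 mouse promoters of the same length, 37.4% held the NF-Y box and 35.7% the Sp1 box. The sterol element core was in 6.24%, the E-box in 7.15%, the cyclic AMP response element in 1.79%, the AP-1 site in 7.81%, the NF-kappaB site in 5.82% and the interferon element core in 3.44%.

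At 24 h following AILI, Idi1, Sqle and Cyp51 averaged less than 1 RPKM over the neutrophil libraries, Fdft1 averaged 2.97, Fdps 8.59 and Ch25h 211 RPKM. The 3 MC-21 values of Ch25h all lay above its 4 PBS values, and the mean was 3.64-fold that of PBS neutrophils. The 5 enzymes in the table and Insig1 overlapped between the groups. With the limma test on log2(RPKM + 1) and an adjusted p under 0.05, 0 of the 4 genes tested were called, where 60 of 9594 genes tested (0.625%) were. At an unadjusted p under 0.05, 1 of the 4 passed, against 14.7% of all genes, and the same gene, Ch25h, was the 1 of 4 that also changed at least 2-fold (2.7% of all genes) and the 1 of 4 whose groups did not overlap (13.3% of all genes). The 3 genes not tested, Idi1, Sqle and Cyp51, were below the filter of 1 RPKM.

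**Figure D1:**
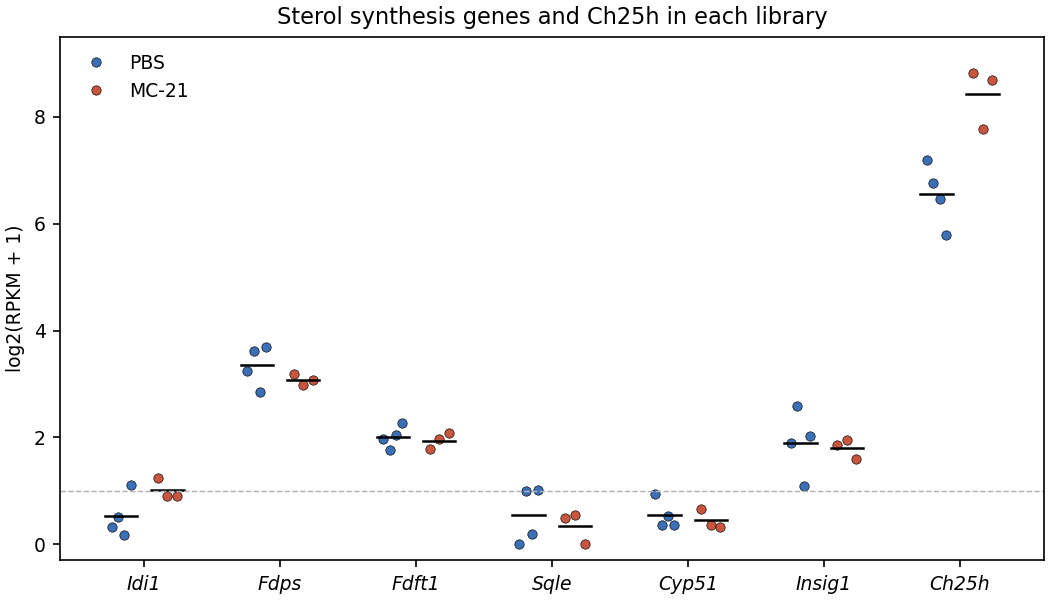
Each point is the log2(RPKM + 1) value of 1 gene in 1 library, for PBS (blue, 4 libraries) and MC-21 (red, 3 libraries) neutrophils, with a bar at the group mean and a dashed line at 1 RPKM. Idi1, Sqle and Cyp51 lie near or below the line, Fdps, Fdft1 and Insig1 above it with overlapping groups, and Ch25h far above them, with its red points all over its blue ones.

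The depth of the libraries sets what can be seen at these levels. The depth was estimated from the ratios of low values between libraries and from the smallest values of 1172 low genes. Of these genes, 42.6% came within 1% of the most frequent depth. At the depth chosen, 73.7% of 6261 low RPKM values of the same genes lay within 0.1 read of a whole read. In a transcript of 1 kb, 1 RPKM stood for 2.66 to 3.96 reads in PBS libraries and for 1.59 to 3.57 reads in MC-21 libraries, of which MC-21 replicate 3 was the shallowest. Over all genes tested the median difference between MC-21 and PBS was -0.15 on the log2 scale, and 69.4% of genes lay below 0, so that small negative differences were the rule. Neutrophil markers were abundant throughout, and the sum of 10 of them was 18493 to 31672 RPKM in PBS and 28477 to 42080 in MC-21 libraries. Markers of other liver cells were present too. The 10 hepatocyte markers summed to 241 to 519 RPKM in PBS and 241 to 365 in MC-21 libraries, and the 8 endothelial markers to 1258 to 2679 and 1426 to 2493.

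Idi1 encodes isopentenyl-diphosphate isomerase, which interconverts the 5-carbon units of the route. Its values were 0.252, 0.419, 0.131 and 1.14 RPKM in PBS replicates 5 to 8 and 1.37, 0.877 and 0.878 in MC-21 replicates 2 to 4. They came from 2, 4, 1 and 13 reads in PBS and 14, 4 and 7 reads in MC-21 libraries. PBS replicate 8 lay between the MC-21 values, while the other PBS replicates lay below all of them. The means were 0.487 ± 0.454 RPKM (SD, n = 4) for PBS and 1.04 ± 0.283 RPKM (SD, n = 3) for MC-21. Fitted without the filter on low values, the difference was 0.49 on the log2(RPKM + 1) scale (SE 0.23, 95% interval -0.05 to 1.04, adjusted p = 0.471), and the two-sided exact permutation p was 0.114. In RPM, reads of a gene scaled to library depth without its length, Idi1 stood at 1.57 over the pooled PBS and 3.15 over the pooled MC-21 libraries.

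Fdps encodes farnesyl diphosphate synthase, whose product feeds sterols as well as protein prenylation. It was the highest of the member enzymes, with 8.42, 11.3, 6.18 and 11.9 RPKM in PBS replicates 5 to 8 and 8.05, 6.88 and 7.38 RPKM in MC-21 replicates 2 to 4. All MC-21 values lay inside the PBS range. The means were 9.45 ± 2.67 RPKM (SD, n = 4) and 7.44 ± 0.585 RPKM (SD, n = 3), with 182 reads over PBS and 88 over MC-21 libraries. The difference of -0.27 in log2(RPKM + 1) did not pass the test (SE 0.23, 95% interval -0.78 to 0.24, adjusted p = 0.624). The interval leaves room for a fall of 0.78 and for a rise of 0.24 on that scale.

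Fdft1 encodes squalene synthase, the enzyme that commits farnesyl diphosphate to sterols. It measured 2.94, 2.41, 3.10 and 3.82 RPKM in PBS replicates 5 to 8 and 2.42, 2.89 and 3.25 RPKM in MC-21 replicates 2 to 4. The groups overlapped across most of their range, at means of 3.06 ± 0.581 RPKM (SD, n = 4) and 2.85 ± 0.419 RPKM (SD, n = 3). The difference was -0.07 in log2(RPKM + 1) (SE 0.20, 95% interval -0.52 to 0.38, adjusted p = 0.894), and it took the opposite sign, 0.09, once each library was centred on its median. Whole reads could not be recovered for this gene, and its annotated length puts it at about 13.2 to 43.2 reads per library.

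Sqle encodes squalene epoxidase, the first oxygenation of the sterol route and one of its slow steps. It was listed at 0, 0.983, 0.137 and 1.01 RPKM in PBS replicates 5 to 8 and at 0.407, 0.457 and 0 in MC-21 replicates 2 to 4. These stand for 0, 9, 1 and 11 reads in PBS and 4, 2 and 0 reads in MC-21 libraries, 27 reads in all. PBS replicates 6 and 8 held nearly all reads of their group, and each group had 1 library without a read. Taking 3 reads as the most that a count of 0 allows, the level was up to 0.395 RPKM in PBS replicate 5 and up to 0.393 in MC-21 replicate 4, for counting error only. The difference in log2(RPKM + 1) without the filter was -0.20 (SE 0.29, 95% interval -0.89 to 0.49, adjusted p = 0.794) and did not pass the test.

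Cyp51 encodes lanosterol 14-alpha-demethylase, which acts after the sterol rings are closed. It measured 0.914, 0.276, 0.432 and 0.290 RPKM in PBS replicates 5 to 8, from 11, 4, 5 and 5 reads. In MC-21 replicates 2 to 4 it measured 0.579, 0.289 and 0.248 RPKM, from 9, 2 and 3 reads. PBS replicate 5 and MC-21 replicate 2 were the highest of their groups, and the others shared a narrow range. The difference without the filter was -0.10 in log2(RPKM + 1) (SE 0.17, 95% interval -0.49 to 0.30, adjusted p = 0.828).

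**Figure D2:**
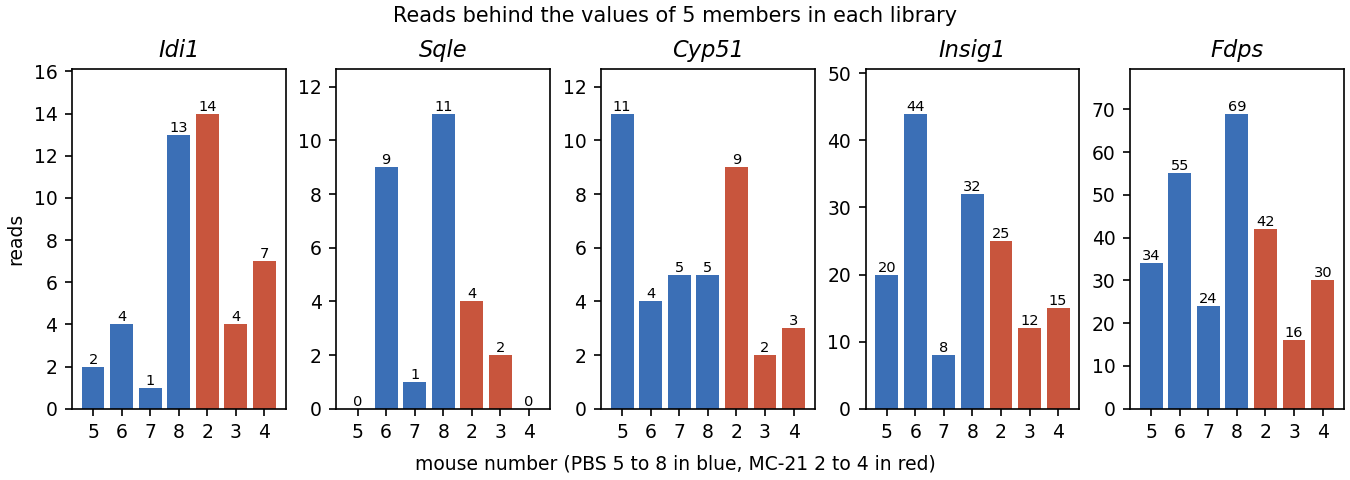
Bars start at 0 and give the reads recovered for Idi1, Sqle, Cyp51, Insig1 and Fdps in each library, with PBS mice 5 to 8 in blue and MC-21 mice 2 to 4 in red, each panel with its own axis and without scaling for depth. Sqle has no read in PBS 5 and MC-21 4, while Fdps holds between 16 and 69 reads per library.

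The plot of reads shows what limits the comparison of the enzymes. Idi1, Sqle and Cyp51 had at most 14 reads in any library. The largest bars of Sqle, Insig1 and Fdps stand in PBS replicates 6 and 8, the deepest of that group. In RPKM, which is scaled to depth, these replicates were also the highest PBS libraries. There Sqle stood at 0.983 and 1.01, Insig1 at 4.99 and 3.05 and Fdps at 11.3 and 11.9 RPKM.

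Insig1 encodes the endoplasmic reticulum protein that retains SCAP, and its transcription is itself driven by SREBP. It measured 2.73, 4.99, 1.14 and 3.05 RPKM in PBS replicates 5 to 8, from 20, 44, 8 and 32 reads. In MC-21 replicates 2 to 4 it measured 2.64, 2.85 and 2.04 RPKM, from 25, 12 and 15 reads. PBS replicates 6 and 7 were the highest and the lowest of all libraries, and the MC-21 values lay between them. The means were 2.98 ± 1.58 RPKM (SD, n = 4) and 2.51 ± 0.421 RPKM (SD, n = 3). The difference was -0.09 in log2(RPKM + 1) (SE 0.32, 95% interval -0.82 to 0.63, adjusted p = 0.916), and it was 0.07 with libraries centred on their median. PBS replicates 6 and 7 were also the highest and the lowest PBS libraries in summed hepatocyte markers, at 519 and 241 RPKM, with 278 and 356 in PBS replicates 5 and 8. The same held for summed lymphocyte markers, at 10.1 and 5.65 RPKM. Endothelial markers were lowest in PBS replicate 7, at 1258 RPKM, but highest in PBS replicate 5, at 2679. Monocyte and macrophage markers were highest in PBS replicate 7, at 629 RPKM. Whether RNA of other cells took part in the spread of Insig1 was not tested.

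Among the 18 sterol synthesis enzymes with values, set in the order of their mean RPKM, Fdps was the third at 8.59. It stood after Ebp at 29.1 and Sc5d at 8.82, which act late in the route, and its range of 6.18 to 11.9 RPKM overlapped that of Sc5d. Fdft1 was the seventh at 2.97. Idi1 (0.724), Cyp51 (0.432) and Sqle (0.428) were in the lower part of the order, above Lss (0.374), and their values overlapped one another. Transcript length enters this order, with annotated lengths of 1233 bases for Fdps, 2249 for Sc5d, 2758 for Sqle and 4667 for Lss. The lengths at which reads came out whole were 1461 bases for Fdps, 2249 for Sc5d and 2748 for Sqle. For Lss no such length was recovered. Levels were uneven along the route, with enzymes of neighbouring steps, such as Fdft1 and Sqle, at mean levels of 2.97 and 0.428 RPKM. Summed over the 5 member enzymes, the level was 12.5, 15.4, 9.97 and 18.2 RPKM in PBS and 12.8, 11.4 and 11.8 RPKM in MC-21 libraries, so that the MC-21 sums lay inside the PBS range. Most of this sum is Fdps and Fdft1, and it says little of Idi1, Sqle and Cyp51.

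**Figure D3:**
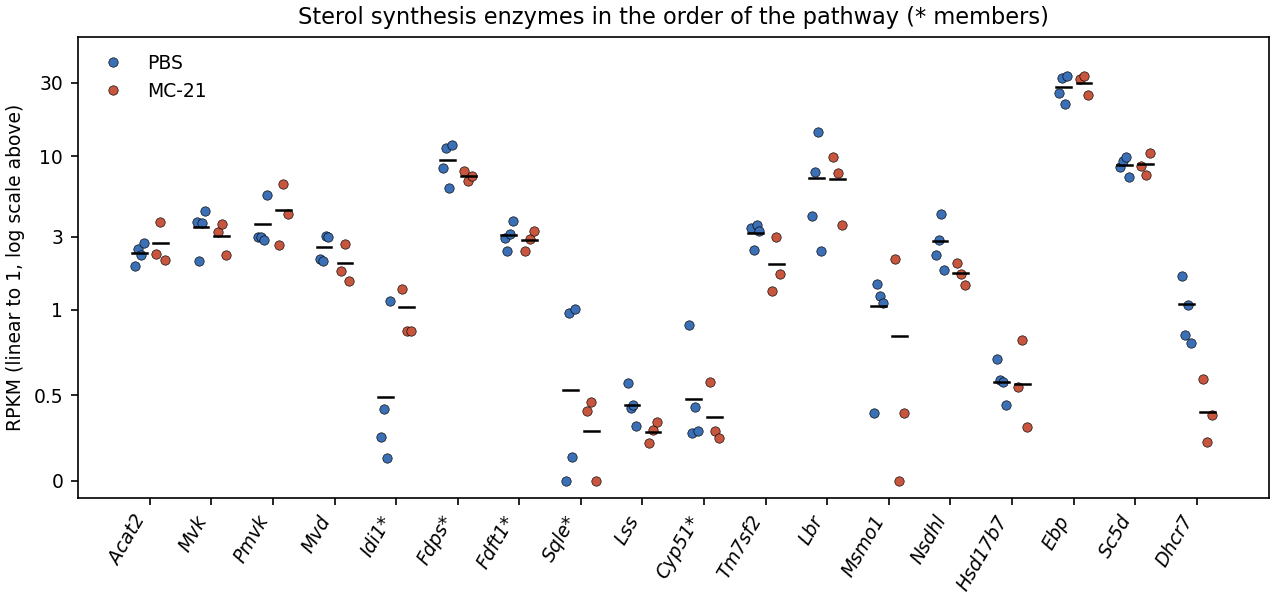
RPKM of 18 sterol synthesis enzymes in pathway order from Acat2 to Dhcr7, with members marked by an asterisk, 1 point per library, PBS in blue, MC-21 in red and bars at group means (axis linear from 0 to 1 and logarithmic above). Levels range from below 0.5 RPKM for Lss, Cyp51 and Sqle to near 30 for Ebp, and the red and blue points overlap for every enzyme but Dhcr7.

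Of the 13 other enzymes listed, 9 were tested and 0 were called by limma, with 0 also at an unadjusted p under 0.05. Their differences ran from -0.50 to 0.22 in log2(RPKM + 1), with a median of 0.02 against -0.15 over all genes tested. The 2 with the largest differences were Tm7sf2, a sterol C14 reductase, at 3.17 ± 0.503 RPKM in PBS and 2.00 ± 0.864 in MC-21 neutrophils (-0.50, SE 0.24, adjusted p = 0.365), and Nsdhl, which takes part in C4 demethylation, at 2.80 ± 1.05 and 1.73 ± 0.281 RPKM (-0.44, SE 0.25, adjusted p = 0.440). Dhcr7, the last reductase toward cholesterol, is named after its values were seen as the 1 enzyme below the filter whose groups did not overlap. Among all genes tested, 13.3% had groups without overlap. It had 13, 8, 8 and 9 reads in PBS and 6, 1 and 3 reads in MC-21 libraries, and its difference without the filter was -0.57 in log2(RPKM + 1) (adjusted p = 0.328).

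Over the 4 members tested the median difference was -0.08 in log2(RPKM + 1), and without Ch25h it was -0.09, against -0.15 over all genes tested, and it was 0.0804 over the 4 once libraries were centred on their median. Over all 7 members without a filter it was -0.09, against -0.08 over 15778 genes.

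Ch25h, on chr19:34548276-34549625 of the minus strand in mm9, is a single-exon gene. Its values were 146, 108, 87.6 and 54.0 RPKM in PBS replicates 5 to 8 and 451, 217 and 411 RPKM in MC-21 replicates 2 to 4. The lowest MC-21 value, in replicate 3, was 1.49 times the highest PBS value, in replicate 5. Within a group the values differed as well, by 2.70-fold from the lowest to the highest PBS library and by 2.08-fold among MC-21 libraries. The means were 98.7 ± 38.3 RPKM (SD, n = 4) for PBS and 360 ± 125 RPKM (SD, n = 3) for MC-21.

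The Ch25h values rest on many more reads than those of the enzymes. PBS libraries held 544, 485, 315 and 289 reads, and MC-21 libraries held 2178, 467 and 1546. Over the pooled libraries this was 128 RPM in PBS and 527 RPM in MC-21 neutrophils. MC-21 replicate 3 had fewer Ch25h reads than PBS replicates 5 and 6 and a higher RPKM, since it was the shallowest library.

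The difference for Ch25h was 1.87 in log2(RPKM + 1) (SE 0.34, 95% interval 1.10 to 2.65). Its adjusted p in limma was 0.0519, just over the threshold. It was the 17th largest positive difference and ranked 65th by p among the 9594 genes tested. The two-sided exact permutation p was 0.0286, the smallest that the 35 ways of dividing 7 libraries into 4 and 3 can give. The adjusted p was below 0.05 in 4 of 14 alternatives, at 0.0441 among genes of at least 5 RPKM, 0.0391 with libraries centred on their median, 0.0446 without PBS replicate 5 and 0.0440 without MC-21 replicate 3. It was as high as 0.272 in a linear model without moderation, while the difference itself stayed between 1.62 and 2.20 in all 14.

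**Figure D4:**
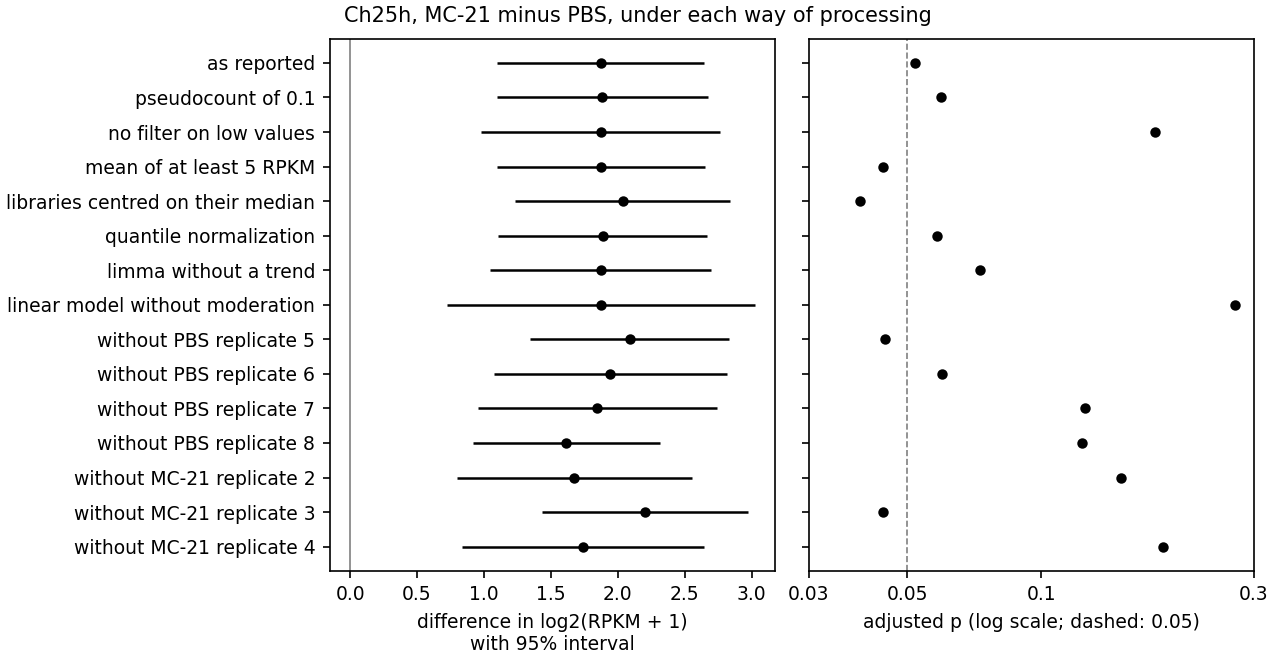
Left, the difference in Ch25h between MC-21 and PBS neutrophils in log2(RPKM + 1) with its 95% interval, as reported and under 14 alternatives. Right, the adjusted p of the same fits on a log axis, with a dashed line at 0.05, which 4 of the 14 alternatives cross and the reported value of 0.0519 does not.

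The plot of Ch25h by alternative shows intervals that all lie above 0, whereas the adjusted p moves to either side of 0.05.

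By level Ch25h ranked 371st of 16047 genes in mean RPKM. Its mean was 24.5 times that of Fdps over all libraries, 10.4 times in PBS and 48.4 times in MC-21 neutrophils. Ch25h was thus above every sterol enzyme in both groups, also above Ebp, whose values ran from 22.0 to 33.2 RPKM.

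Markers of other cells differed between the same libraries. The 12 markers of monocytes and macrophages summed to 528 to 629 RPKM in PBS and 261 to 324 in MC-21 libraries, and 4 of the 10 tested fell while 0 rose, against 0.625% of all genes called. At an unadjusted p under 0.05, 8 of the 10 were lower, against 14.7% of all genes, and 7 did not overlap, against 13.3%. None of the 12 was at 0 in every library. The 6 lymphocyte markers summed to 5.65 to 10.1 RPKM in PBS and 1.94 to 4.78 in MC-21 libraries. They were low, with means of 0.123 to 2.13 RPKM each, and 3 were tested. Of these 3, 0 were called, 1 was lower at an unadjusted p under 0.05 and 0 were without overlap. The part of monocytes, macrophages and lymphocytes in the Ch25h difference was not tested. The neutrophil markers showed 0 calls in 10, and 3 were higher in MC-21 neutrophils at an unadjusted p under 0.05. In bulk RNA from sorted cells, a change in the number of cells of a type and a change in RNA per cell cannot be told apart.

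Genes of oxysterol metabolism and reception, not all of which handle the product of Ch25h, were measured in the same libraries. Of these 6 genes, 5 were tested and 1 was called, lower in MC-21 neutrophils, against 0.625% of all genes. At an unadjusted p under 0.05, 3 of the 5 were lower, against 14.7% of all genes in either direction. The gene called was Nr1h3, the oxysterol receptor LXR-alpha, at 6.04, 9.29, 11.3 and 11.3 RPKM in PBS replicates 5 to 8 and 1.65, 2.78 and 1.41 in MC-21 replicates 2 to 4. All MC-21 values were below all PBS values, and Nr1h3 fell by 1.82 on the log2 scale (SE 0.26, adjusted p = 0.0172). The call was lost in 6 of 14 alternatives, with an adjusted p up to 0.177 without moderation. The summed markers of monocytes and macrophages and of lymphocytes given above were lower in the same libraries, and their part in the Nr1h3 difference was not tested. Nr1h2, the other LXR receptor, is named after its values were seen. It was more abundant, at 61.3 ± 3.00 RPKM in PBS and 56.5 ± 5.02 in MC-21 neutrophils. Its groups overlapped, and its difference of -0.12 did not pass the limma test (SE 0.13, adjusted p = 0.716).

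Cyp27a1, the mitochondrial enzyme that makes 27-hydroxycholesterol, ran from 2.48 to 3.50 RPKM over the PBS libraries and from 1.01 to 1.86 over the MC-21 libraries. Its groups did not overlap, and the difference of -0.68 did not pass the test (SE 0.21, adjusted p = 0.202). Gpr183, the receptor for 7-alpha,25-dihydroxycholesterol that guides immune cell migration, ran from 3.69 to 5.41 RPKM and from 1.47 to 4.27 RPKM, with overlapping groups and a difference of -0.72 (SE 0.28, adjusted p = 0.285). Cyp7b1 and Hsd3b7, which turn 25-hydroxycholesterol into that ligand and then break the ligand down, are named after their values were seen. Cyp7b1 had 5 reads over all PBS and 1 over all MC-21 libraries. Hsd3b7 measured 36.3 to 40.2 RPKM in PBS and 21.4 to 46.1 in MC-21 libraries. Of the enzymes on either side of this ligand, Ch25h and Hsd3b7 were thus well covered and Cyp7b1 was close to the floor.

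The machinery that senses sterols gave 0 calls by limma among 5 genes tested, with 0 at an unadjusted p under 0.05. The largest differences were those of Scap, the sterol sensor, at 7.69 ± 1.72 and 5.56 ± 0.965 RPKM (-0.39, SE 0.21, adjusted p = 0.425), and of Srebf1, at 12.6 ± 1.31 and 10.4 ± 0.784 RPKM (-0.25, SE 0.16, adjusted p = 0.511). Among 7 genes of cholesterol transport and storage, all tested, 0 were called and 1 was lower at an unadjusted p under 0.05. Of all genes tested, 14.7% passed that p in either direction and 13.3% had no overlap, so 1 of 7 is near the common share. It was Npc2, the lysosomal cholesterol carrier, at 71.8 ± 9.29 RPKM in PBS and 55.6 ± 5.15 in MC-21 neutrophils, with no overlap (-0.36, SE 0.15, adjusted p = 0.319).

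The fatty acid branch of SREBP targets had 5 genes tested and 0 called, with 2 lower at an unadjusted p under 0.05, which 14.7% of all genes passed in either direction. Acly, which supplies cytosolic acetyl-CoA to both sterols and fatty acids, measured 10.1 ± 1.03 and 7.12 ± 1.17 RPKM, with no overlap (-0.46, SE 0.18, adjusted p = 0.283). Scd2, a fatty acid desaturase, measured 3.66 ± 1.59 and 0.973 ± 0.575 RPKM, also with no overlap (-1.21, SE 0.35, adjusted p = 0.178). The groups of Scd2 were close, at 1.46 RPKM in PBS replicate 5 and 1.44 in MC-21 replicate 2. Its two-sided exact permutation p was 0.0571. All 5 differences in this list were below 0, from -1.21 to -0.25, where 69.4% of all genes tested lay below 0. The isoprenoid branch that leaves the route after Fdps had 5 genes tested, 0 called and 0 at an unadjusted p under 0.05. Fnta, a subunit of the prenyltransferases, ran from 6.73 to 12.7 RPKM in PBS and from 6.99 to 9.02 in MC-21 libraries (-0.28, SE 0.24, adjusted p = 0.635), and Coq2, of ubiquinone synthesis, from 23.9 to 32.1 and from 18.9 to 26.7 RPKM (-0.25, SE 0.17, adjusted p = 0.543).

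**Figure D5:**
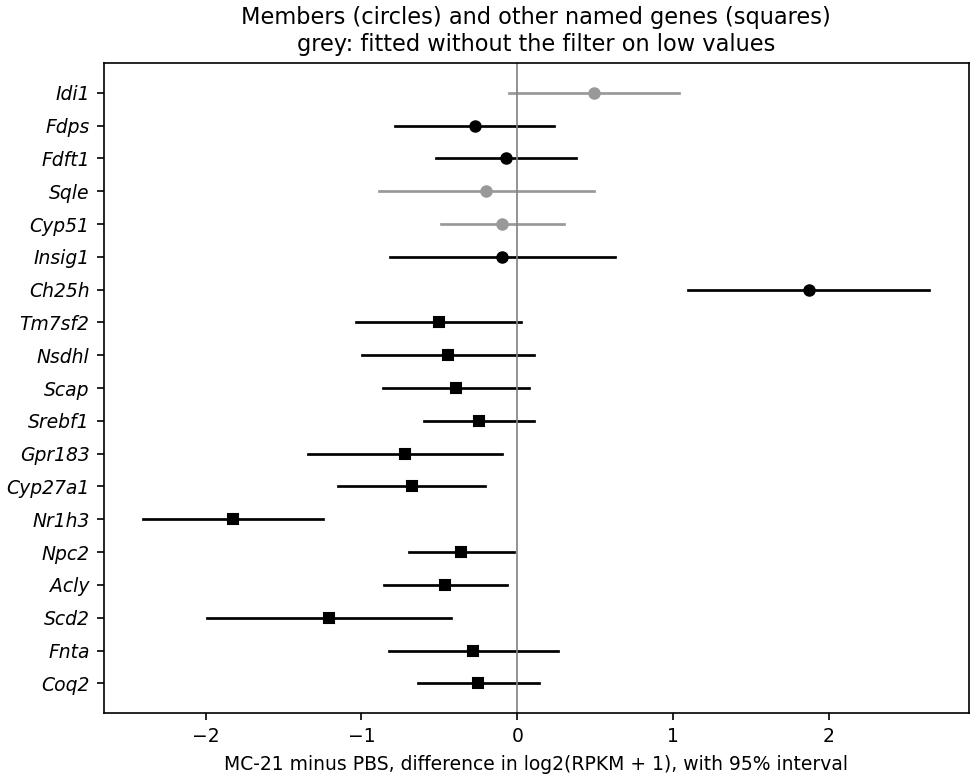
Differences between MC-21 and PBS neutrophils in log2(RPKM + 1) with 95% intervals, for the 7 members (circles) and the other named genes of sterol synthesis, sensing, oxysterols, transport, fatty acids and isoprenoids (squares), with grey for genes fitted without the filter on low values. Ch25h at 1.87 and Nr1h3 at -1.82 lie farthest from 0, and the intervals of the other members include 0.

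The plot of differences sets these groups side by side. The interval of Ch25h lies above 0, those of Nr1h3, Scd2, Gpr183, Cyp27a1, Acly and Npc2 below 0, and those of the 5 member enzymes, Insig1 and the 2 sensing genes shown include 0. Of these genes, Nr1h3 alone passed the adjusted threshold.

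Over 5858 genes that averaged 5 RPKM or more, likeness of pattern was measured as the root mean square difference between the log2(RPKM + 1) values of 2 profiles over the 7 libraries, each taken from its own mean. The averaged profile of the 5 member enzymes varied over 0.54, and the nearest genes were Raly (0.0458), Olfm1 (0.0704), Ormdl2 (0.0740), Ets1 (0.0773) and Pcbp2 (0.0803). Raly had its lowest value, 47.6 RPKM, in PBS replicate 7 and its highest, 72.4 RPKM, in PBS replicate 8, as the summed enzymes did. A gene picked as the nearest shares such extremes by the choice itself. The averaged profile also weighs Idi1, Sqle and Cyp51, with at most 14 reads in any library, as much as Fdps and Fdft1. The profile of Ch25h varied over 3.04, and its nearest genes were Ceacam10 (0.377), Hilpda (0.427) and Crispld2 (0.455). Because the distance depends on the range of a profile, these values are not set against those of the enzymes. Ceacam10 averaged 8.56 RPKM in PBS and 24.2 in MC-21 neutrophils, Hilpda 39.8 and 150 RPKM, and Crispld2 17.1 and 94.2 RPKM. These 3 genes follow Ch25h in the split between the groups, which such a measure picks out, and they are given as a description.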

How the data were processed

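The authors made 3′ RNA-seq libraries from sorted neutrophils, aligned them with HISAT 0.1.5 against mm9, and deposited RPKM values per gene from Partek Genomics Suite 6.6. The annotation and any filter are not given in the sources used here. Each column was matched to a mouse by its label. Reads were recovered where a gene's RPKM values were whole multiples of 1 read at a length within 25% of the annotated one. Differences are MC-21 minus PBS on log2(RPKM + 1), a scale that understates changes of low genes, without further scaling, for 9594 genes averaging 1 RPKM or more. The test was limma 3.58.1 in R 4.3.3 (eBayes with a trend), adjusted by Benjamini-Hochberg over these genes, and was checked on simulated data. Exact permutation tests used the difference in mean log2(RPKM + 1). By rule, named genes outside the members passed a p under 0.05 in their list, or had its 2 largest differences, or had the nearest profile. Ebp, Sc5d, Lss, Dhcr7, Nr1h2, Cyp7b1 and Hsd3b7 were added after their values were seen. The members and lists were chosen with earlier results of these data known. Results of 1 listed gene are not reported here. Coordinates of genes are from the mm9 annotation and those of promoters from GRCm38.p6, and the builds were not mixed. Plots used matplotlib 3.10.9.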

Additional observations from a re-analysis of the deposited data

How the results depend on the processing

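The members called numbered 1, Ch25h, among genes averaging 5 RPKM or more and with libraries centred on their median, and 0 to 1 when each library was left out. In all 14 alternatives, 1 member, Ch25h, was past 2-fold with an unadjusted p under 0.05, and 0 of the other sterol enzymes were called. The median difference of the members was 0.80 among genes of at least 5 RPKM, where 2 members remained, and it changed sign from -0.08 to 0.0804 with centring and to 0.0944 with quantile normalization. Centring moved the median of all genes tested from -0.15 to 0.02 and quantile normalization to -0.01. Fdft1 changed sign to 0.0921 with centring, 0.11 with quantile normalization, 0.01 (0.0137) without PBS replicate 8 and 0.01 (0.0123) without MC-21 replicate 2. Insig1 changed sign to 0.0687 with centring, 0.0815 with quantile normalization, 0.13 without PBS replicate 6 and 0.0057 without MC-21 replicate 4, and lay between -0.36 (-0.363, without PBS replicate 7) and 0.13 when a library was left out. The cause was not tested. Of 217 combinations of gene and alternative, 199 kept their direction and their side of the threshold, 8 are the changes of sign above, 6 are the lost calls of Nr1h3 and 4 the gained calls of Ch25h. Nr1h3 had an adjusted p of 0.0925 without the filter, 0.177 without moderation, and 0.0571, 0.0825, 0.0663 and 0.0700 without PBS replicate 7, PBS replicate 8, MC-21 replicate 2 and MC-21 replicate 4. Genes called over the whole table numbered 60, with 6 without the filter, 4 without moderation and 9 to 102 when a library was left out. No paired analysis was possible because the groups share no mouse number. Depth limits Idi1, Sqle and Cyp51, which had 45, 27 and 39 reads in all. The groups are 4 and 3 mice, and the titles of the samples do not say whether all were handled together.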
